A study of Mus musculus with 4 samples.

Results

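The peaks described here are the weaker wild-type-only (WT-only) Gata4 peaks that lie inside genes. They were selected on measured values: a peak of the WT list with no peak of the DKO list within 500 bp of its position, inside at least 1 listed gene, over 1000 bp from every listed gene start, and with a peak height under 10. This gave 3517 of the 20410 WT peaks (17.2%). Of all WT peaks, 11105 had no DKO peak within 500 bp (54.4%), and of the 4539 WT peaks inside genes that met the start and height limits, 3517 had none (77.5%). Because the rule used these values, nothing is read from them. Among the 1843 WT peaks inside genes with a height of 10 or more, 572 had no DKO peak within 500 bp (31.0%).

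The study mapped an inducible Gata4 in mouse mesoderm with and without the de novo DNA methyltransferases. Embryonic stem (ES) cells of the J1 line, either WT or lacking both Dnmt3a and Dnmt3b (DKO), carried Gata4GR, Gata4 joined to the steroid-binding part of the glucocorticoid receptor and driven by the CAG promoter in every group. Cells were differentiated on OP9 stroma, dexamethasone (Dex) at 100 nM was given to both genotypes for 3 h, and Flk1(+) mesoderm was then taken at day 4.5 by magnetic sorting. ES cells of each genotype without Dex gave the background library, and a mixture of 3 antibodies was used for the chromatin immunoprecipitation. There were 4 libraries, 1 for each genotype and cell stage, and each genotype was 1 clone, so that genotype, clone and library cannot be told apart.

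Gata4 is a zinc finger factor that binds the GATA motif and takes part in heart, endoderm and vessel development. Dnmt3a and Dnmt3b place methyl groups on previously unmethylated CpG sites, and methylated DNA can be bound less well by some factors. Introns often carry enhancers of the gene they lie in or of a neighbouring gene.

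Every interval below is a 95% interval for counting error over peaks. It holds no variation between cultures, and no p-value was computed. The deposited lists hold no value for the DKO library at a position without a DKO peak, so that the DKO signal at these positions is not known. By the study's methods the DKO Flk1(+) library was sequenced more deeply than the WT one, and the part of depth in which peaks are in 1 list was not tested.

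The peaks were of low to moderate height by construction. Their heights began at 5.00 and had a median of 6.27, against a median of 7.74 over all WT peaks. In either list the lowest height was 5.00 and the lowest enrichment, height over ES background, was 3.00, at the calling limits in the study's methods. A DKO signal that fell just short of these limits would not appear in the DKO list. By class, 1481 peaks had a height of 5 to 6, 901 of 6 to 7, 558 of 7 to 8 and 577 of 8 to 10. The height of the ES background at the same positions had a median of 1.39 (quartiles 0.998 and 1.73), and the deposited enrichment had a median of 4.54. In the authors' ranking of the WT list they held places from 2740 to 20409. Close to the height limit, a peak in Arl13b had 9.98, and one in Pmp22 that was not taken had 10.002. At the distance limit, a peak in Sez6 lay 512 bp from a DKO peak, and peaks in Ldb2 and Lphn3 that were not taken lay 493 bp from one. At the start limit, a peak in Itm2c lay 1005 bp from a start, and one at Pcp4l1 that was not taken lay 1000 bp from one.

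Most of the peaks held a GATA motif. Of the 3517 deposited sequence windows, each reaching 250 bp to either side of the position, 2535 had AGATAA or TGATAA on either strand (72.1%, 70.6 to 73.5), against 12637 of all 20410 WT windows (61.9%). In windows of the same size 2000 bp to either side, 2878 of 7033 had it (40.9%), a difference of 31.2 percentage points (29.3 to 33.0). Among 32851 RefSeq promoters of 300 bases (build GRCm38.p6), 18.6% had the motif, against 65.7% of the peaks over their central 300 bases. A match describes letters in the window and is not a bound site.

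The motifs lay near the peak positions. Of 4367 matches, 2008 were centred within 50 bp of the position (46.0%, 44.5 to 47.5), where even placement would put 20.2%, and in the flanking windows 21.1% were. The match nearest to the position was at a median of 36.5 bp. A single match was found in 1303 windows, 2 in 808, 3 in 309, and 982 windows had none. Matches within 50 bp of each other occurred in 15.6% of the windows, 14.9% of all WT windows and 3.51% of the flanking windows. Among 6-base words found in the central 100 bp of at least 50 of the peaks, GATAAG had the highest ratio to the flanks: it was in 25.3% of the peaks and 3.13% of the flanks. This search over words was chosen after the data were seen.

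Compared with DKO-only peaks chosen by the mirrored rule, the WT-only peaks held the motif more often, as did the whole WT list: 61.9% of all WT peaks and 38.1% of all 22733 DKO peaks held it. It was in 1308 of the 3011 DKO-only weaker intragenic windows (43.4%), a difference of 28.6 points (26.3 to 30.9). The DKO-only windows stood 7.15 points (5.01 to 9.30) above their own flanks, while the WT-only windows stood 31.2 points above theirs. The DKO-only peaks were richer in GC, with a median of 51.5% against 47.7%. Within classes of GC under 45%, 45 to 50%, and 50% or more, chosen after the data were seen, the difference was 16.6 (12.1 to 21.1), 19.1 (14.9 to 23.3) and 24.9 points (21.4 to 28.4).

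Against the 1022 weaker intragenic WT peaks that did have a DKO peak within 500 bp, the difference was small and depended on base composition. The shared peaks held the motif in 66.5% of windows, 5.54 points below the WT-only peaks (2.34 to 8.83). With a limit of 250 bp to the DKO peak in place of 500 bp, the difference was 3.39 points (0.0542 to 6.85). The shared windows had a median GC of 49.5%. In windows under 45% GC the WT-only peaks held the motif less often, by 6.11 points (-9.72 to -1.38). At 45 to 50% the difference was 0.190 points (-4.68 to 5.54), and at 50% or more it was 7.15 points (1.84 to 12.4). By height, it was 4.26 points (-1.86 to 10.7) at 5 to 6, 9.23 (2.61 to 16.1) at 6 to 7, 13.6 (6.35 to 21.1) at 7 to 8 and 4.23 (-1.59 to 10.3) at 8 to 10. A higher motif share in WT-only than in shared peaks was therefore not seen in every class of GC.

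WT-only weaker peaks far from genes, with no listed gene near them, held the motif somewhat more often than those inside genes. They numbered 4107 and held the motif in 76.1% of windows, so that the intragenic peaks stood at -4.06 points (-6.04 to -2.09). In the 3 GC classes the intervals of this difference took in 0: -2.43 (-5.14 to 0.184), -1.13 (-4.26 to 1.99) and -3.28 points (-7.26 to 0.716). Windows with 2 or more matches were 35.0% inside genes and 40.2% far from them, a difference of -5.12 points (-7.29 to -2.94). An ES height under 1 was found at 25.1% and 29.4%, a difference of -4.34 points (-6.33 to -2.33).

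The intragenic WT-only peaks had fewer CpG sites than the shared and DKO-only peaks, and more than the WT-only peaks far from genes. Their windows had a median of 6 CpGs, and 1753 had 0 to 5 (49.8%, 48.2 to 51.5), against 36.1% of all WT and 18.0% of all DKO peaks. The share was 37.1% in the shared peaks, 12.8 points lower (9.33 to 16.1), and 28.4% in the DKO-only peaks, 21.4 points lower (19.1 to 23.7). In the WT-only peaks far from genes it was 55.3%, so that those inside genes stood at -5.48 points (-7.72 to -3.23). With 0 to 10 CpGs the difference from the peaks far from genes was -1.40 points (-2.92 to 0.108). With 0 to 5 CpGs it was -2.16 points (-6.63 to 2.32) at heights 6 to 7 and -4.45 (-9.97 to 1.12) at 7 to 8. At heights 5 to 6 and 8 to 10 its interval lay below 0. These height classes were chosen after the data were seen. In the flanks of the intragenic peaks the share with 0 to 5 CpGs was 58.5%. Windows with 20 or more CpGs made up 3.58% of the WT-only peaks, 9.78% of the shared and 16.4% of the DKO-only peaks. A CpG within 10 bp of the most central motif was present in 498 of 2535 windows (19.6%), against 21.5% of the shared windows with a motif, a difference of -1.83 points (-5.40 to 1.502), and 24.4% of the DKO-only windows with a motif, a difference of -4.74 points (-7.57 to -1.99). This count near the motif was added after the data were seen. No methylation value is held in the lists, and methylation at these CpGs was not tested.

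The 126 CpG-rich windows were unlike the rest. AGATAA or TGATAA was found in 30 of them (23.8%, 17.2 to 32.0), against 1367 of the 1753 windows with 0 to 5 CpGs (78.0%, 76.0 to 79.9). Coding exons held 35 of the 126. Their median ES background height was 1.74, against 1.31 in the windows with 0 to 5 CpGs, and the part of background in these peaks was not tested. Over all the peaks, those without the motif had a median ES height of 1.45 and those with it 1.36.

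Other words were compared with the whole WT list and with the flanks. CAGCTG, an E-box, was in 30.9% of the peaks, 29.1% of all WT peaks and 22.8% of the flanks, and in 33.5% of the shared and 33.1% of the DKO-only peaks. TGACAG, a word of Meis factors, was in 39.8% of the peaks, 36.0% of all WT peaks and 32.6% of the flanks, and GGAATG, bound by Tead factors, in 31.2%, 29.1% and 25.4%. CTG followed after 7 to 9 bases by AGATAA or TGATAA, the spacing of Tal1 with Gata1 in blood cells, contains the GATA motif itself, and was in 9.04%, 9.35% and 3.18%, and in 12.2% of the shared peaks. TGANTCA, the AP-1 word, was in 18.8% of the peaks, 18.0% of all WT peaks and 14.4% of the flanks. The other weaker sets had more of it: 21.1% far from genes, 22.5% in DKO-only and 28.4% in shared peaks, from which the WT-only peaks stood at -9.61 points (-12.7 to -6.62). In the order of peaks, all WT peaks and flanks, CAGATG was in 37.8%, 32.3% and 34.4%, TGTTTAC (forkhead) in 7.62%, 7.49% and 6.34%, and ACAAAG or ATTGTT (Sox) in 48.1%, 43.1% and 51.8%. In the same order, CACGTG was in 6.62%, 9.11% and 6.80%, and CCGGAAGT (Ets) in 0.398%, 2.86% and 0.384%. AGAACA, then 3 bases, then TGTTCT, the full glucocorticoid receptor element, occurred in 2 of the 3517 windows.

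Nearly all of the peaks were intronic, as gene bodies are. In GENCODE vM1, 3266 lay in introns (92.9%, 92.0 to 93.7), 100 in coding exons, 79 in UTRs, 32 in noncoding exons and 40 outside any annotated gene. Of the bases of protein-coding genes over 1000 bp from a start, 93.1% were intronic. Among the DKO-only peaks 82.6% were in introns and 10.7% in coding exons, so that the WT-only peaks were in introns more often by 10.3 points (8.68 to 11.9). The first intron of some transcript held 1497 of the peaks (42.6%, 40.9 to 44.2), where it made up 34.7% of those bases. The shared peaks had 91.2% in introns and 45.1% in a first intron, and of the DKO-only peaks 40.3% were in a first intron. With the longest transcript of each gene, the first intron held 31.5% of the WT-only peaks. It then made up 24.3% of the bases of protein-coding genes over 1000 bp from a start. The shared peaks had 32.8% in this intron and the DKO-only peaks 29.2%.

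The distance to the listed start had a median of 41329 bp, and the motif was more frequent farther away. It was in 60.6% (56.2 to 64.7) of the 502 peaks up to 5000 bp from a start, in 67.2% of 683 from there to 20000 bp, in 73.4% of 1280 to 100000 bp and in 79.2% (76.6 to 81.5) of the 1052 beyond. Windows with 0 to 5 CpGs rose in the same order, from 39.8% to 56.4%. The nearest DKO peak was at a median of 26528 bp, and 1073 of the peaks (30.5%) had a DKO peak within 10000 bp.

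The peaks were not evenly spread over chromosomes. Chromosome 11 held 403 of them, 7.38 per Mb of gene body, where the other autosomes had from 2.75 to 3.98 and the X chromosome 0.953. On chromosome 11 the motif share was 60.05% (55.2 to 64.7), against 73.6% (72.1 to 75.2) elsewhere. Both whole lists were dense there, with 19.1 WT and 19.0 DKO peaks per Mb. The median ES height of the peaks was 1.45 on chromosome 11, between 1.24 (chromosome 14) and 1.62 (chromosome 8) on the other autosomes, and 0.873 on X. The limits on height and enrichment bound these ES heights from above. Over all WT peaks, the median ES height was 1.98 on chromosome 8 and 1.78 on chromosome 11, above every other chromosome. Over all DKO peaks it was highest on chromosome 11, at 1.78, and was 1.62 on chromosome 8. The whole lists had medians of 1.68 (WT) and 1.58 (DKO). Copy number was not tested. Without chromosome 11 the difference from the DKO-only peaks was 29.7 points and that from the shared peaks 6.55 points. The DKO-only weaker intragenic peaks were densest on chromosome 8, with 389 of 3011 at 8.08 per Mb of gene body, and the whole lists had 10.4 WT and 16.0 DKO peaks per Mb there. Without chromosome 8 the difference from the DKO-only peaks was 29.0 points (26.6 to 31.4).

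The peaks fell in 2207 named genes, 1519 of which had 1 such peak and 77 of which had 5 or more. These genes were long, with a median of 92.6 kb against 15.5 kb for protein-coding genes. A DKO peak lay elsewhere in 1319 of the 2207 genes, and 888 held none (40.2%). Over all protein-coding genes, which were shorter, 6646 of 22208 held a DKO peak (29.9%). Counted by peaks, so that genes with many weigh more, 2430 of the 3517 (69.1%) were in a gene with a DKO peak. Within 500 bp of another peak of the set there were 305, whose windows overlap. With 1 peak kept of each such run, a choice made after the data were seen, the motif difference was 27.4 points from the DKO-only peaks and 4.70 from the shared peaks. Auts2 had the most, with 17 over 1106 kb, followed by Accn1, an acid-sensing ion channel, with 16 over 1088 kb, Slit3, a secreted guidance ligand, with 14, and Magi1, a scaffold protein of cell junctions, with 13. Bcas3 had 11, as did Frmd4a, Odz2 and Prkca. Counts per length differed: Slit1 had 10 in 143 kb and Slc14a2, a urea transporter, 9 in 63.0 kb. All 8 WT peaks in Alk, a receptor tyrosine kinase, belonged to the set, and Alk was 1 of the 888 genes without a DKO peak.

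Gene lists are given by their counts beside those over all 22208 protein-coding genes, of which 9.46% had at least 1 of the peaks, at 3.39 peaks per Mb of gene body. Longer genes can hold more peaks, and the median length of each list other than the pluripotency genes was over 15.5 kb. Over all 3517 peaks, 72.1% held the motif, and the motif counts of the lists below stand beside that share. No list was tested.

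Of 29 cardiac regulators, 11 had a peak, 20 peaks in all at 7.42 per Mb, and 18 of the 20 held the motif. Isl1, a LIM homeodomain factor of heart progenitors, had a peak of height 7.02 with 4 matches in its second intron, where the ES height was 0.640. Myocd, a coactivator of serum response factor, had one of 8.16 in intron 2 with an ES height of 0.877. Both cofactors of Gata proteins had peaks: Zfpm2 had heights of 8.32 and 6.55, and Zfpm1 had 5.59. Tead1 had 3 (9.64, 8.97 and 6.98), with ES heights of 2.33, 2.70 and 1.59, and Foxp1 had 3, from 5.37 to 6.21. Mef2a, Mef2d, Meis2 and Smyd1 had 1 or 2 each. DKO peaks also lay in Tead1 (13), Zfpm1 (22), Zfpm2 (4), Myocd (4) and Foxp1 (2), while Isl1 held none. Of the 29 regulators, 20 held a DKO peak (69.0%), beside 29.9% of all protein-coding genes.

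Muscle genes had peaks in 10 of 32 cases, 15 peaks at 2.68 per Mb, of which 11 held the motif. Acta2, which encodes smooth muscle actin, had the highest of these at 9.35, in intron 1, with a motif 1.5 bp from the position and an ES height of 0.581. Tpm1, a tropomyosin, had 8.75 and 6.81, and Ryr2, the calcium release channel of heart muscle, had 9.14 and 6.51. The ES heights at Ryr2 were 2.67 and 2.07. Cacna1c had 3 peaks, from 5.11 to 6.35, and Casq2, Mylk, Nebl, Cald1, Ldb3 and Tnnt2 had 1 or 2 each.

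Genes of blood and vessels had peaks in 15 of 35 cases, 29 peaks at 11.5 per Mb, of which 18 held the motif. Runx1, a factor required for definitive blood formation, had 7, with heights from 5.06 to 7.30, in a gene with 11 WT and 5 DKO peaks. Zeb2 had 5, from 5.03 to 7.49. Ets1 had 7.82 and 6.69, Gata3 had 8.37 with 3 matches, and Plxnd1, a semaphorin receptor of endothelium, had 7.47. The ES height at Gata3 was 2.74, which gave an enrichment of 3.05 and place 19158 in the ranking. Kdr, which encodes Flk1 itself, had 1 of 5.06 in intron 1 without a match, beside 3 DKO peaks in the gene. Tek, an endothelial receptor, had 1 of 5.19 with 2 matches.

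Signalling genes were also represented. Of 30 Wnt pathway genes 10 had peaks, 18 peaks at 8.56 per Mb, of which 13 held the motif. Ror1, a receptor for Wnt ligands, had 5 in intron 1, from 5.24 to 9.77, and Axin2, a feedback inhibitor, had 7.67 and 6.26. Of 32 BMP and TGF-beta genes 9 had peaks, 12 peaks at 4.61 per Mb, of which 8 held the motif. Smad3 had 9.06 and 5.04, Smad1 had 8.33 and 5.27, and Smurf1, a ubiquitin ligase for Smads, had 7.82. Endoderm genes had peaks in 5 of 30 cases, 6 peaks at 3.90 per Mb, of which 3 held the motif. These were at Lama1 (5.64 and 5.37), Col4a2, Cubn, Lrp2 and Pth1r. Of 16 chromatin and methylation genes 2 had peaks, Hdac4 (8.75 and 5.24) and Mbd2 (6.01). Of the 15 annotated pluripotency genes 1 did, Prdm14 (6.02).

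The study lists 94 genes that responded more strongly to Gata4 in DKO mesoderm, a list chosen on expression in these cells. Of the 92 in the annotation, 21 had at least 1 of the WT-only peaks (22.8%), 36 peaks at 5.69 per Mb, of which 28 held the motif. A DKO peak lay inside 30 of the 92 (32.6%), beside 29.9% of all protein-coding genes. The study also reports Gata4 peaks in DKO mesoderm, many of them DKO-specific, near part of a larger set of such genes. Myo5b, a motor of membrane traffic, had 5, from 5.87 to 7.84, and held no DKO peak. Fhod3, a regulator of sarcomere actin, had 4, Foxo3 had 3, and Ptprb, an endothelial phosphatase, had 3 with heights of 9.80, 7.43 and 6.82. Aldh1a3, an enzyme of retinoic acid synthesis, had 8.995. Of 12 genes that the study took up for ChIP, bisulfite or reporter work, 5 had a peak: Myocd, Grk5 (6.30), Thbs4 (6.29), Lgmn (5.67) and Rin3 (5.41). Those at Grk5, Lgmn and Rin3 were in introns 9, 2 and 1, and that at Thbs4 was in a coding exon. The Grk5 peak lay 189063 bp from the gene start, and none of the 5 was matched to the region the study took up. Aqp8 and Sox7 had none.

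The peaks of best score lay in genes of varied function. Arl13b, a GTPase of cilia, had a height of 9.98 and an ES height of 1.07, and Adamts17, a secreted protease, had 9.98 and 0.742. Mapre2, Unc5a, Gfi1, Grik3, Ddx31, Fhit, Odz4 and Arhgap26 followed, from 9.95 to 9.90. Each of the 10 held at least 1 match. The windows with most matches were 2 overlapping ones in Grm3, a glutamate receptor, with 10 matches each and heights of 9.15 and 7.72. Epha6 had 9 matches, and Fstl4 and A2bp1 had 8.

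Sequences around 8 of the peaks, 60 bases to either side, show the motif near the position and, in Tpm1, 54.5 bp from it. They were chosen, after their values were seen, from listed genes and the best scores, each as the best-scoring peak of its gene with a match in the stretch. They are from the forward strand of mm9, 5′ to 3′, with AGATAA or TGATAA on either strand in capitals (TTATCT or TTATCA where it reads on the reverse strand). All lie in introns: Isl1 at chr13:117097718-117097838, Acta2 at chr19:34327150-34327270, Tpm1 at chr9:66894689-66894809, Gata3 at chr2:9790490-9790610, Ror1 at chr4:99972621-99972741, Aldh1a3 at chr7:73551910-73552030, Adamts17 at chr7:74199202-74199322 and Fhit at chr14:10665023-10665143.
Isl1: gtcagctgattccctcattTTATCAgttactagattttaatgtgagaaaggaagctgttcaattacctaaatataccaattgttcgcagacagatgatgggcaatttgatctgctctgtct
Acta2: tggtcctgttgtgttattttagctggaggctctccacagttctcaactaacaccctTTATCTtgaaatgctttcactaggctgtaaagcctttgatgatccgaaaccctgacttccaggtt
Tpm1: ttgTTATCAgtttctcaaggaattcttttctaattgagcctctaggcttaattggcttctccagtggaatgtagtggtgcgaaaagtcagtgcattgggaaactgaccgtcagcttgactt
Gata3: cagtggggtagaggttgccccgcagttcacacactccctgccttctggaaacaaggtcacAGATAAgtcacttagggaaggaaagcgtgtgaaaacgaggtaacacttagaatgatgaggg
Ror1: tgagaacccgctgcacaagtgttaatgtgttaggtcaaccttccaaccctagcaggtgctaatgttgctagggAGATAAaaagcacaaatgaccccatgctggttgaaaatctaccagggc
Aldh1a3: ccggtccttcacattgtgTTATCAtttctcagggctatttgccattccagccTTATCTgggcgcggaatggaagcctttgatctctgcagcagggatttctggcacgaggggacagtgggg
Adamts17: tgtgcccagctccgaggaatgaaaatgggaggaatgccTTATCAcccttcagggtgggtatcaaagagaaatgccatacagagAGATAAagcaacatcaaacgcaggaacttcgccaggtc
Fhit: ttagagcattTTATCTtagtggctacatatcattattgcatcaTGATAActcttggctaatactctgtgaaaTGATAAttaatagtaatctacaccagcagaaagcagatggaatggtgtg

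Stretches of 100 bases to either side are shown for Runx1, where the nearest match was 70.5 bp from the position, and for Grm3, whose window held the most matches, 3 of them in the printed stretch. They lie in intron 6 of Runx1 at chr16:92631926-92632126 and intron 1 of Grm3 at chr5:9628627-9628827 (mm9, forward strand, 5′ to 3′, motifs in capitals).
Runx1: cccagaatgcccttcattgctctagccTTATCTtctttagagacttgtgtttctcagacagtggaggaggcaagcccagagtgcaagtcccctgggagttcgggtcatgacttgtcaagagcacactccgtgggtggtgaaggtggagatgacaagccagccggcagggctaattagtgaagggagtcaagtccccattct
Grm3: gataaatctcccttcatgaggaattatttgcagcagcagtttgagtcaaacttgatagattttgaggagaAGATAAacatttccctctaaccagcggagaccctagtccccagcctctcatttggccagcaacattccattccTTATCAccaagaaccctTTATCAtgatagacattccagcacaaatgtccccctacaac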

How the data were processed

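Gata4 ChIP-seq of WT and DKO Flk1(+) mesoderm was used as 2 deposited peak lists, 1 library each, called by the authors against ES cells of the same genotype. Reads were mapped to mm9, and peaks were called with DNAnexus tools. The submitters' processing notes name CASAVA 1.8.1 and cutadapt. The aligner, its settings and the depth of the ES libraries are not given in the sources used here, and the deposited lists hold no read counts. By the study's methods, more reads were mapped for the DKO than for the WT Flk1(+) library. Lists were assigned to genotypes by the number of peaks in the study's methods.

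Peak height and background height are signal values of the authors' density profile, whose scaling for depth is not stated. The deposited enrichment is the ratio of these heights, with a background under 1 taken as 1. The deposited q value is given as -log10. The rank is a score by the authors, 1 being the best.

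Rows were joined to 1 per peak. The deposited sequences equalled mm9 at all 20410 WT and 22733 DKO positions. Motifs were searched on both strands, genes were taken from the lists and exons from GENCODE vM1. Shares have Wilson and differences Newcombe intervals. Values were computed with Python 3.11.15, NumPy 2.4.6, pandas 2.3.3 and pysam 0.24.0. The choosing, motif and interval steps were tested on simulated data.

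The members and lists were chosen with earlier results of these data known. Named were peaks in listed genes (cardiac, muscle, endoderm, blood and vessel, BMP and TGF-beta, Wnt, chromatin, pluripotency and hyper-responsive genes), the 5 genes with most peaks, the 10 best scores, the 5 windows with most motifs, peaks nearest a limit, and genes the study took up for ChIP, bisulfite or reporter work. Frmd4a, Odz2 and Prkca had as many as Bcas3 and were named with it. Slit1, Slc14a2 and Alk were named after their values were seen. Alternatives changed the distance, start, height and rank limits, motif, window, flanks and CpG limits. Added after the data were seen were GC classes, omission of chromosome 11 or 8, 1 peak per run within 500 bp, height classes against DKO-only peaks and peaks far from genes, and the wider motif and central window against the latter.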

Additional observations from a re-analysis of the deposited data

How the results depend on the processing

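The number of peaks was 1280 in the better-scoring 50% of the WT list. The motif share was 74.0% over 5000 bp from a start, 69.5% at heights under 7, 78.9% in the better-scoring 50%, 82.7% with AGATAG and TGATAG added and 61.0% in the central 200 bp. Introns held 94.2% over 5000 bp from a start and 94.1% in the better-scoring 50%.

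Against shared peaks the motif difference was 3.39 points with a 250 bp limit to the DKO peak, 4.26 points at heights 5 to 6 and 4.23 at 8 to 10, the latter 2 with intervals that took in 0. By GC, chosen after the data were seen, it was 0.190 points at 45 to 50% and turned to -6.11 under 45%. Against WT-only peaks far from genes it was -1.24 points at heights 7 to 8, also chosen after the data were seen, and -2.43, -1.13 and -3.28 in the 3 GC classes, with intervals that took in 0. Against DKO-only peaks and against flanks every alternative run kept an interval above 0.

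Of the matches, 71.4% lay in the central 200 bp. Windows with 0 to 3 CpGs were 27.6% and with 0 to 10 were 86.4%. The first intron of the longest transcript held 31.5%, and an ES height under 0.5 was found at 4.07%, against 25.1% under 1. With GENCODE gene bodies 2157 genes had a peak.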
